A study of Mus musculus with 12 samples.

Results

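The 9 genes described here carry out sugar reabsorption and glucose production in the kidney: the sodium-coupled glucose transporters Slc5a2 and Slc5a1, the facilitative carriers Slc2a2 and Slc2a5, the gluconeogenic enzymes Pck1, G6pc, Fbp1 and Pcx, and the fructose kinase Khk. They were chosen with earlier results of these data known. They were taken by symbol from a count table of 39171 genes, and each symbol matched 1 row. Their transcripts were measured by RNA sequencing of kidney, with 1 library from each of 12 mice, all male and at most 3 months old. Of these, 4 were wild-type, 4 carried the GNE M743T/M743T knock in and were classed as healthy, and 4 carried that same genotype and were classed as sick. The knocked-in substitution lies in Gne, whose product opens the synthesis of sialic acid, so the healthy and sick knock-in groups share 1 genotype and differ by phenotype. The sources used here do not say what defined the sick state. Nothing in the labels says that mice were pooled or came from 1 litter, and p-values measure the spread between these samples.

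The proximal tubule takes back filtered glucose. SGLT2 (Slc5a2) does most of this in its early part and SGLT1 (Slc5a1) takes up what is left further along, while GLUT2 (Slc2a2) lets glucose out to the blood. The same epithelium makes glucose from lactate, glutamine and glycerol: pyruvate carboxylase (Pcx) forms oxaloacetate, cytosolic phosphoenolpyruvate carboxykinase (Pck1) turns it into phosphoenolpyruvate, fructose-1,6-bisphosphatase (Fbp1) removes a phosphate late in the route, and the catalytic subunit of glucose-6-phosphatase (G6pc) frees glucose. GLUT5 (Slc2a5) carries fructose, and ketohexokinase (Khk) phosphorylates it.

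Pck1 and G6pc are textbook targets of hormone-driven transcription, and their levels moved together across the mice described below, so the sequence ahead of their start sites is shown. Both stretches come from the RefSeq promoter table (build GRCm38.p6), lie on the forward strand, run 5′ to 3′, and end before the first annotated exon. Capitals mark a match to TGACG, the core of a cyclic AMP response element, on either strand.
Pck1, chr2:173152823-173153047: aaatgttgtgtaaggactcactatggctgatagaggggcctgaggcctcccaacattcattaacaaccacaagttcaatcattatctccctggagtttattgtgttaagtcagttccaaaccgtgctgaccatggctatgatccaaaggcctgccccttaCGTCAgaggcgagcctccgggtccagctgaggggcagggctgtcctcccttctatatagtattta
G6pc, chr11:101367466-101367560: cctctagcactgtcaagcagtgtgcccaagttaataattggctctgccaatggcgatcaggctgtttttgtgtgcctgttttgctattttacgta
In the Pck1 stretch the cyclic AMP core (CGTCA as read here) starts 90 bases before the RefSeq start, and the G6pc stretch holds no match. The G6pc stretch is only 95 bases long. It ends ahead of the GENCODE start at 101367561, while the RefSeq start lies downstream at 101367716. The bases next to the RefSeq start are therefore not printed for G6pc. The search was for exact letters, so it does not show whether other forms of the element are present. Of 32851 promoters of the same length in that table, 250 bases before to 50 after a start, 20.8% hold TGACG. The match describes letters only. Promoters of 8 of the 9 genes, all but Slc5a2, were matched. Of these, the Khk window also holds the motif, 74 bases before its RefSeq start, which lies downstream of the GENCODE start given below, and the other 6 genes have no match. CAAAGTCCA, the HNF4 motif searched, is in 0.475% of promoters and in none of these windows.

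Library totals ran from 10605546 to 22633684 counts, and all 9 genes were among the 15589 with counts high enough to test. Levels are in CPM, the usual per-library share of counts after TMM scaling, and changes are log2 fold changes with their SE from edgeR's quasi-likelihood test, called at a Benjamini-Hochberg adjusted p below 0.05 over all genes tested. The tissue label was met by its markers: 15 proximal tubule reference genes, among them Lrp2, Cubn and Slc34a1, summed to between 22384 and 28313 CPM in the wild-type group and between 23708 and 29090.3 CPM in the healthy one. The sick group had sums between 3836 and 6719 CPM, and each of the 15 was lower there than in wild-type (median log2 fold change -2.37). All 10 tubular injury markers and all 7 macrophage markers rose in sick mice against wild-type. Wild-type mouse 2 stood apart over the whole transcriptome: on the second principal component of all genes tested, with 11.9% of the variance, it lay at -84.7, the other wild-type mice at 1.34 to 18.3, and sick mouse 3 at -38.9 with the other sick mice at 4.22 to 10.1. Without wild-type mouse 2 and healthy knock-in mouse 4, which stood apart for several of the 9 genes, 8 of the 9 fell against wild-type and 7 against healthy knock-in mice. Of the 15853 genes tested in that setting, 4103 fell against wild-type and 3813 against healthy knock-in mice. In whole tissue, fewer proximal tubule cells and less RNA of a gene in each cell cannot be told apart.

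In sick kidneys 8 of the 9 genes fell against wild-type and against healthy knock-in mice, and Slc5a1 was the one that did not pass. In healthy knock-in kidneys none of the 9 passed against wild-type. For scale, of all genes tested 25% fell and 25.9% rose against wild-type, 21.9% fell and 24.5% rose against healthy knock-in mice, and 0.314% passed in either direction between healthy knock-in and wild-type mice (700 genes had an unadjusted p under 0.05 there in edgeR, none of the 9 among them, and DESeq2 and limma-voom also called none of the 9). With libraries scaled by their totals alone, 8420 genes were higher and 1605 lower against wild-type in place of 4032 and 3901, and 8581 and 1425 against healthy knock-in mice in place of 3814 and 3418; of the 9, 7 were then lower and 1 (Slc5a1) higher against wild-type, and 6 lower and 1 (Slc5a1) higher against healthy knock-in mice. The median log2 fold change of the 9 was -1.94 against wild-type and -2.14 against healthy knock-in mice, where the median of all genes was 0.019 and 0.048. For 7 of the 9 all sick mice lay under all wild-type mice, where 20.6% of all genes did so and 43.2% were apart in either direction. For 7 all sick mice lay under all healthy knock-in mice (23.2% of all genes, and 47.2% apart in either direction). Healthy knock-in and wild-type mice overlapped for all 9, and were apart for 3.97% of all genes. The 2 comparisons share the sick mice, so their counts are not independent.

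**Figure D1:**
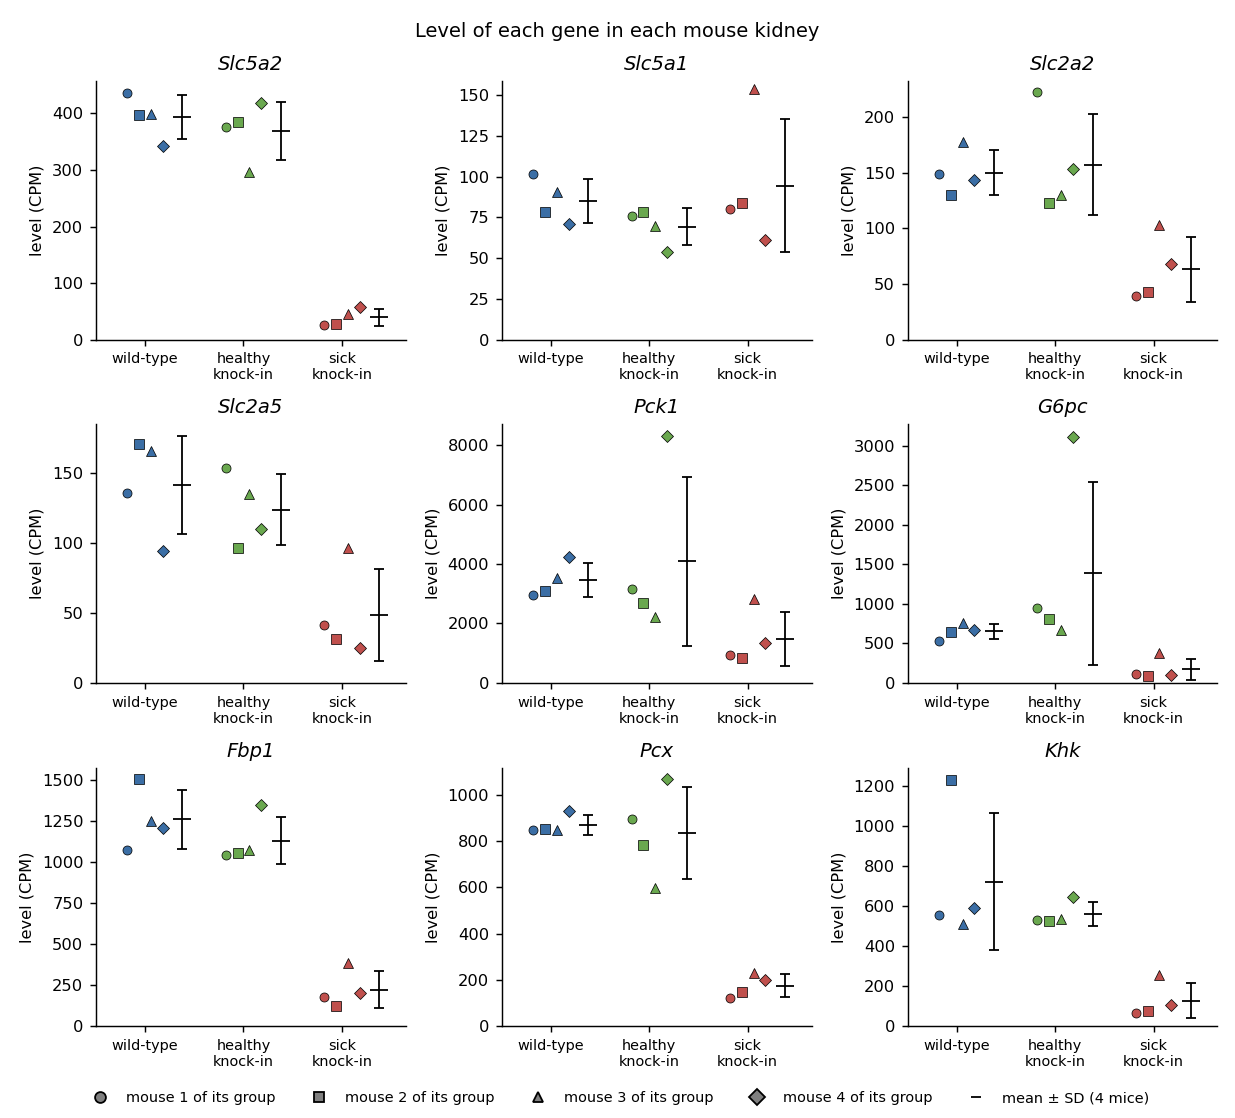
Level of each of the 9 genes in each kidney, in CPM on linear axes from 0, by group (wild-type, healthy knock-in, sick knock-in), with the mean and SD of 4 mice beside the points and a marker shape for each mouse number. The sick group has the lowest mean in all panels but Slc5a1, where sick mouse 3 has the highest level of all 12, at 154 CPM.

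Slc5a2 (ENSMUSG00000030781, chromosome 7, 128265657 to 128272430) encodes the main glucose transporter of the early proximal tubule. Its level was 437, 398, 399.6 and 342 CPM in wild-type mice 1 to 4 and 377, 385, 297 and 419 CPM in healthy knock-in mice 1 to 4. In sick mice 1 to 4 it was 26.6, 27.9, 44.6 and 57.8 CPM. The sick mice were far below every other mouse, and the highest of them was mouse 4. The means were 394 ± 38.9, 369 ± 51.4 and 39.2 ± 14.9 CPM (SD, n = 4 each). Slc5a2 fell 10.1-fold against wild-type (log2 fold change -3.33 ± 0.25, edgeR adjusted p = 1.83e-06), and 0.981% of all genes tested had a more negative value. Against healthy knock-in mice it was -3.24 ± 0.25 (adjusted p = 2.90e-06), and healthy knock-in against wild-type gave -0.094 ± 0.23 (adjusted p = 0.949, 95% interval -0.60 to 0.42). BC017158 overlaps Slc5a2 on the opposite strand, and the sources used here do not say if strand was kept. BC017158 also fell, from 178 to 37.7 CPM (-2.24 ± 0.23).

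Slc5a1 (ENSMUSG00000011034, chromosome 5, 33104219 to 33162870), the high-affinity sodium-glucose transporter, did not follow Slc5a2. It stood at 101, 78.3, 90.8 and 70.9 CPM in wild-type mice, 76.2, 78.3, 69.5 and 53.7 CPM in healthy knock-in mice, and 79.9, 83.8, 154 and 60.9 CPM in sick mice. The groups overlap, and sick mouse 3 stands above every other mouse. Slc5a1 overlaps 5033423K11Rik on the opposite strand and Gm15936 on its own, and shared reads were not tested. The log2 fold change was 0.15 ± 0.25 in sick against wild-type mice (edgeR adjusted p = 0.645, 95% interval -0.41 to 0.70) and -0.19 without sick mouse 3. It was 0.45 ± 0.25 in sick against healthy knock-in mice (adjusted p = 0.156). With libraries scaled by their totals alone, which moves the median of all genes up to 0.61, Slc5a1 passed as higher in both (0.72 with adjusted p = 0.0213 against wild-type, and adjusted p = 0.00337 against healthy knock-in mice).

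Because of this contrast, the counts of Slc5a1 and Slc5a2 were set against each other within each library, which needs no scaling; this ratio and the next ones were chosen after the levels had been seen. For every Slc5a2 count there were 0.232, 0.197, 0.227 and 0.207 Slc5a1 counts in wild-type mice 1 to 4, 0.202, 0.203, 0.234 and 0.128 in the healthy knock-in group, and 3.00, 3.01, 3.45 and 1.05 in the sick group. The sick mice lie above all others, and sick mouse 4 is the lowest of them. The ratio was 11.1-fold higher in sick than in wild-type mice (log2 difference 3.47, two-sided exact permutation p = 0.0286, the smallest that 4 against 4 mice can give, 0.0514 after adjustment over 9 ratio comparisons). It was 12.8-fold higher than in healthy knock-in mice at the same exact p. Per kb of exon, Slc5a2 averaged 136 CPM and Slc5a1 20.8 CPM in wild-type mice, and 13.5 and 23.1 CPM in sick mice.

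Slc2a2 (ENSMUSG00000027690, chromosome 3, 28697903 to 28731359), which encodes the basolateral glucose carrier, stood at 149, 129.7, 178 and 143 CPM in wild-type mice, 223, 123, 129.6 and 153 CPM in healthy knock-in mice, and 39.0, 42.7, 103 and 67.5 CPM in sick mice. No sick mouse reached the others, and mouse 3 came closest. 1700112D23Rik, which overlaps it on the opposite strand, was at 0.648 CPM or less in every mouse. It fell 2.38-fold against wild-type (-1.25 ± 0.29, edgeR adjusted p = 0.00302) and 2.50-fold against healthy knock-in mice (-1.32 ± 0.29, adjusted p = 0.00247). Healthy knock-in against wild-type mice gave 0.069 ± 0.28, and -0.15 without healthy mouse 1.

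Slc2a5 (ENSMUSG00000028976, chromosome 4, 150119283 to 150144169), the fructose carrier, stood at 136, 171, 166 and 94.2 CPM in wild-type mice, 153, 96.7, 135 and 110.2 CPM in healthy knock-in mice, and 41.5, 31.1, 96.5 and 25.2 CPM in sick mice. Sick mouse 3 lay above wild-type mouse 4 and just under healthy knock-in mouse 2, and the other sick mice lay well below. Slc2a5 fell against wild-type (-1.55 ± 0.37, edgeR adjusted p = 0.00349) and against healthy knock-in mice (-1.36 ± 0.36, adjusted p = 0.00858). The call against healthy knock-in mice was lost with library totals alone (-0.79, adjusted p = 0.0584). The count ratio of Slc2a5 to Slc2a2 did not separate sick from wild-type mice (log2 difference -0.36, exact permutation p = 0.486) or from healthy knock-in mice (-0.15, exact permutation p = 0.800).

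**Figure D2:**
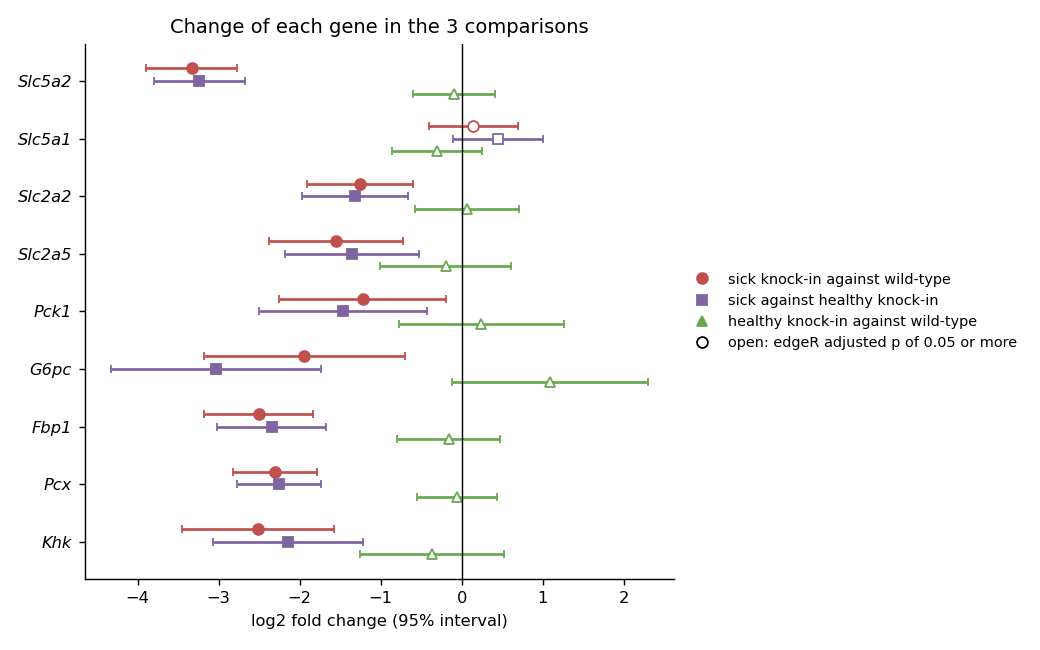
Log2 fold change of each of the 9 genes with its 95% interval in the 3 comparisons, with filled symbols for an edgeR adjusted p below 0.05 and open symbols otherwise. Slc5a2 has the most negative value against wild-type at -3.33, Slc5a1 is open throughout, and all 9 values of healthy knock-in against wild-type mice are open.

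Pcx (ENSMUSG00000024892, chromosome 19, 4510472 to 4621752), the entry enzyme of gluconeogenesis from pyruvate, had a narrow range in wild-type mice. It stood at 846, 850.2, 848 and 931 CPM in wild-type mice, 895, 783, 596 and 1069 CPM in healthy knock-in mice, and 121, 149, 232 and 201 CPM in sick mice. The highest sick mouse lay well under the lowest other mouse. Pcx fell 4.95-fold against wild-type (-2.31 ± 0.23, edgeR adjusted p = 8.78e-06) and 4.77-fold against healthy knock-in mice (-2.25 ± 0.23, adjusted p = 1.30e-05). Lrfn4, which overlaps Pcx on the opposite strand, rose from 3.43 to 14.3 CPM.

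Pck1 (ENSMUSG00000027513, chromosome 2, 173153048 to 173159273) had the highest level of the 9 and the least certain fall. It stood at 2953, 3096, 3543 and 4235 CPM in wild-type mice, 3145, 2701, 2205 and 8313 CPM in healthy knock-in mice, and 949, 855, 2807 and 1328 CPM in sick mice. Sick mouse 3 lay just under the lowest wild-type mouse and above healthy knock-in mice 2 and 3, and healthy knock-in mouse 4 stood far above all others. Pck1 fell 2.33-fold against wild-type (-1.22 ± 0.46, edgeR adjusted p = 0.0397) and 2.76-fold against healthy knock-in mice (-1.46 ± 0.46, adjusted p = 0.0193). The call against wild-type was lost with library totals alone (-0.65, adjusted p = 0.170) and when any of wild-type mice 1, 3 and 4 or sick mice 1, 2 and 4 was left out (-1.30 to -1.03, adjusted p = 0.0522 to 0.105). Against healthy knock-in mice it was lost without healthy mouse 4 (-0.86, adjusted p = 0.0820), without sick mouse 1 or 2 (adjusted p = 0.0544 and 0.0562) and with library totals alone (-0.86, adjusted p = 0.0764). In the authors' deposited table, whose test asks for a change beyond 0.5 on the log2 scale, Pck1 has -1.14 with an adjusted p of 0.372 and Slc2a2 -1.22 with 0.0596 in sick against wild-type mice. In sick against healthy knock-in mice the authors' deposited table gives Pck1 -1.37 with an adjusted p of 0.147 and Slc2a5 -1.29 with 0.115. Fat also expresses Pck1: 5 of 5 tested adipose markers (Adipoq, Plin1, Cidec, Cfd, Fabp4) rose in sick against wild-type mice, with summed levels of the 6 listed of 60.7 to 126 CPM in wild-type, 44.9 to 89.6 CPM in healthy knock-in and 48.1, 395, 403 and 1627 CPM in sick mice 1 to 4. Sick mouse 4 had the most adipose signal and mouse 3 the most Pck1, and the part of fat in the Pck1 level was not tested. Liver also makes Pck1 and G6pc: the 8 liver markers listed summed to 12.5 to 772 CPM in wild-type, 169 to 562 CPM in healthy knock-in and 19.6 to 345 CPM in sick mice. Of 5 tested liver genes 2 fell and none rose in sick against wild-type mice, with log2 fold changes from -3.62 to 2.58. Healthy knock-in mouse 4 had the highest liver sum of its group (562 CPM). Wild-type mouse 2 had the highest liver sum of all 12 mice (772 CPM), with Pck1 at 3096 CPM and G6pc at 645 CPM. Wild-type mouse 3 had the lowest (12.5 CPM), with Pck1 at 3543 CPM and G6pc at 763 CPM. The part of liver in the Pck1 and G6pc levels was not tested.

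G6pc (ENSMUSG00000078650, chromosome 11, 101367561 to 101377903) stood at 529, 645, 763 and 674 CPM in wild-type mice, 943, 812, 673 and 3118 CPM in healthy knock-in mice, and 108, 89.4, 376 and 106 CPM in sick mice. Healthy knock-in mouse 4 stood apart, as it did for Pck1. Sick mouse 3 also stood apart, while for Pck1 it was only the highest of its group. G6pc fell 3.85-fold against wild-type (-1.94 ± 0.55, edgeR adjusted p = 0.01005) and 8.17-fold against healthy knock-in mice (-3.03 ± 0.57, adjusted p = 9.31e-04). Without sick mouse 3 these were -2.69 and -3.78, and the value against healthy knock-in mice was -2.26 without healthy mouse 4. Healthy knock-in against wild-type mice gave 1.09 ± 0.53 (adjusted p = 0.912), and 0.31 without healthy mouse 4.

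The count ratio of G6pc to Pck1 was steadier than either level. It was 0.179, 0.208, 0.215 and 0.159 in wild-type mice, 0.299907, 0.301, 0.305 and 0.375 in healthy knock-in mice, and 0.114, 0.105, 0.134 and 0.0797 in sick mice. The 3 groups do not overlap, with the healthy knock-in mice on top and the sick mice at the bottom. Against wild-type the ratio was 1.69-fold higher in healthy knock-in mice (log2 difference 0.75) and 1.78-fold lower in sick mice (-0.83), each with an exact permutation p of 0.0286, the smallest possible, and 0.0514 after adjustment over 9 ratio comparisons. Leaving out any 1 mouse kept the healthy difference between 0.67 and 0.82 and the sick one between -0.94 and -0.69. All 6 skeletal muscle markers rose in healthy knock-in against wild-type mice, summing to 175 to 283 CPM against 0.566 to 2.22 CPM, and their part in this ratio was not tested.

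**Figure D3:**
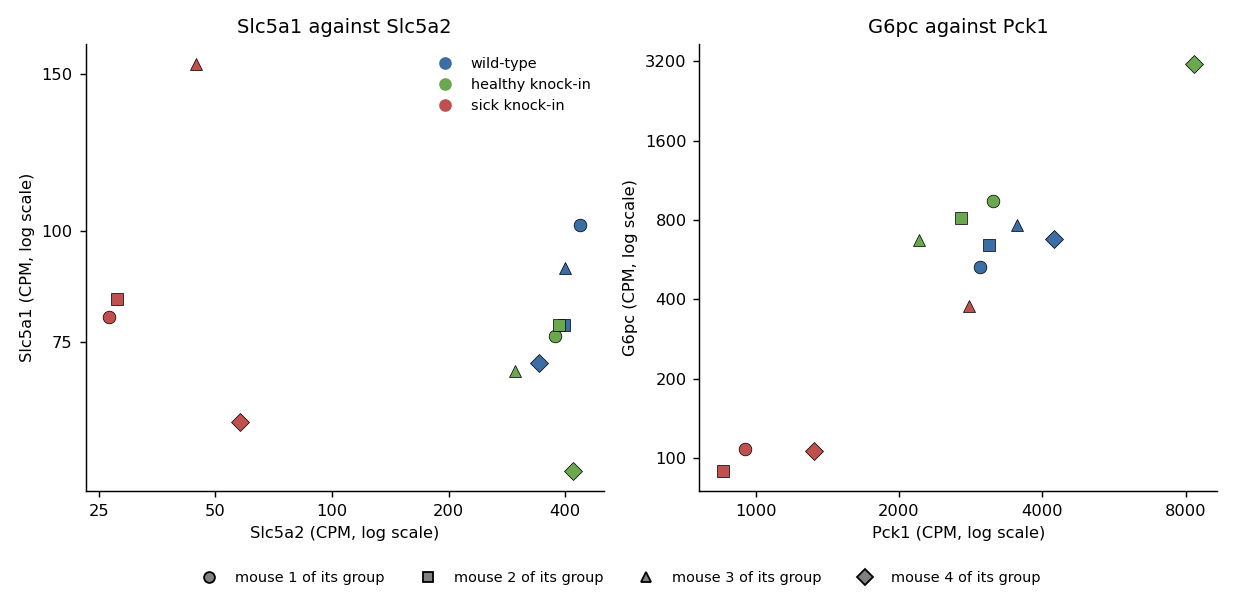
Level of Slc5a1 against Slc5a2 (left) and of G6pc against Pck1 (right) in each of the 12 kidneys, in CPM on log axes, coloured by group with a marker shape for each mouse number. Left, the sick mice are shifted to low Slc5a2, with 3 of them within the Slc5a1 range of the other groups and mouse 3 above it; right, the groups form bands, with 0.0797 to 0.134 G6pc counts per Pck1 count in sick mice and 0.159 to 0.215 in wild-type mice.

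Fbp1 (ENSMUSG00000069805, chromosome 13, 62864753 to 62888282, reverse strand) stood at 1073, 1505, 1251 and 1209.9 CPM in wild-type mice, 1045, 1055, 1075 and 1344 CPM in healthy knock-in mice, and 179, 125, 386 and 199 CPM in sick mice. The highest sick mouse, mouse 3, lay far below the lowest other mouse. Fbp1 fell 5.67-fold against wild-type (-2.50 ± 0.30, edgeR adjusted p = 2.74e-05) and 5.09-fold against healthy knock-in mice (-2.35 ± 0.30, adjusted p = 5.27e-05).

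Khk (ENSMUSG00000029162, chromosome 5, 30921431 to 30931248) stood at 555, 1233, 512 and 592 CPM in wild-type mice, 529, 526, 537 and 648 CPM in healthy knock-in mice, and 67.6, 78.1, 256 and 106 CPM in sick mice. Wild-type mouse 2 stood far above all others, and no sick mouse reached the other groups. Khk fell 5.71-fold against wild-type (-2.51 ± 0.42, edgeR adjusted p = 3.11e-04) and 4.42-fold against healthy knock-in mice (-2.14 ± 0.41, adjusted p = 0.00103), and without sick mouse 3 these were -3.11 and -2.74. In healthy knock-in against wild-type mice the value was -0.37 ± 0.39, and 0.017 without wild-type mouse 2.

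Sick mouse 3 had the highest level of its group for 8 of the 9 genes, all but Slc5a2. It also had the highest summed proximal tubule reference of the sick mice (6719 CPM) and the highest summed injury markers (16936 CPM), and the fewest total counts (10605546).

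Per kb of exon the order in wild-type mice was Pck1 at 1008 ± 168 CPM, Fbp1 at 740.3 ± 106, Khk at 402 ± 190.1, G6pc at 270.4 ± 40.1, Pcx at 183 ± 8.71, Slc5a2 at 136 ± 13.4, Slc2a5 at 41.7 ± 10.4, Slc2a2 at 26.0 ± 3.52 and Slc5a1 at 20.8 ± 3.29 (SD, n = 4). The ranges of Pck1 and Fbp1, of Fbp1 and Khk, of Khk and G6pc, of Slc2a5 and Slc2a2 and of Slc2a2 and Slc5a1 overlapped, and those of the other neighbours did not. Among 15443 genes with a length, Pck1 ranked 30 in wild-type and 36 in sick kidney, Slc5a2 moved from rank 339 to 3097, and Slc5a1 from 2437 to 1714.

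The 9 genes were next set against the proximal tubule itself by scaling each library to the geometric mean of the 15 reference genes. On this scale 94.3% of all genes were higher in sick than in wild-type mice, with a median of 2.45, so being higher says little about a gene, and 1.09% were lower. Slc5a2 was among those lower (log2 fold change -1.01 ± 0.22, edgeR adjusted p = 2.51e-04), and lower again against healthy knock-in mice (-0.87 ± 0.22, adjusted p = 9.71e-04), where 1.1% of genes were lower and 94.9% higher. Against wild-type, 3 of the 15 reference genes themselves were also lower and 3 higher. Of 6 late proximal tubule markers 3 were lower and 2 higher (median -1.41). The Slc5a2 value stayed between -1.34 and -0.91 against wild-type in every other reference, block and leave-one-out setting tried, each past the threshold. These other references were not independent of the first. The sum used the same 15 genes, and the early markers share Slc4a4, Slc22a8, Slc13a3 and Slc34a1 with them. The late markers were not tried as a reference. Khk (-0.32 ± 0.34), Fbp1 (-0.22 ± 0.25), Pcx (0.036 ± 0.21) and G6pc (0.30 ± 0.40) did not pass against wild-type, with adjusted p of 0.357 to 0.873. Slc2a5 (0.74 ± 0.32), Slc2a2 (1.05 ± 0.22) and Pck1 (1.06 ± 0.34) passed as higher but lay under the median gene. Slc5a1 (2.51 ± 0.28) lay about at that median. With the 6 markers of the early proximal tubule as reference, 3 of the 9 passed instead of 5, Slc5a2 among them at -1.34. The share of all genes for that reference is not given here. In healthy knock-in against wild-type mice none of the 9 passed on this scale, where 0.308% of all genes were higher and 0.0128% lower.

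**Figure D4:**
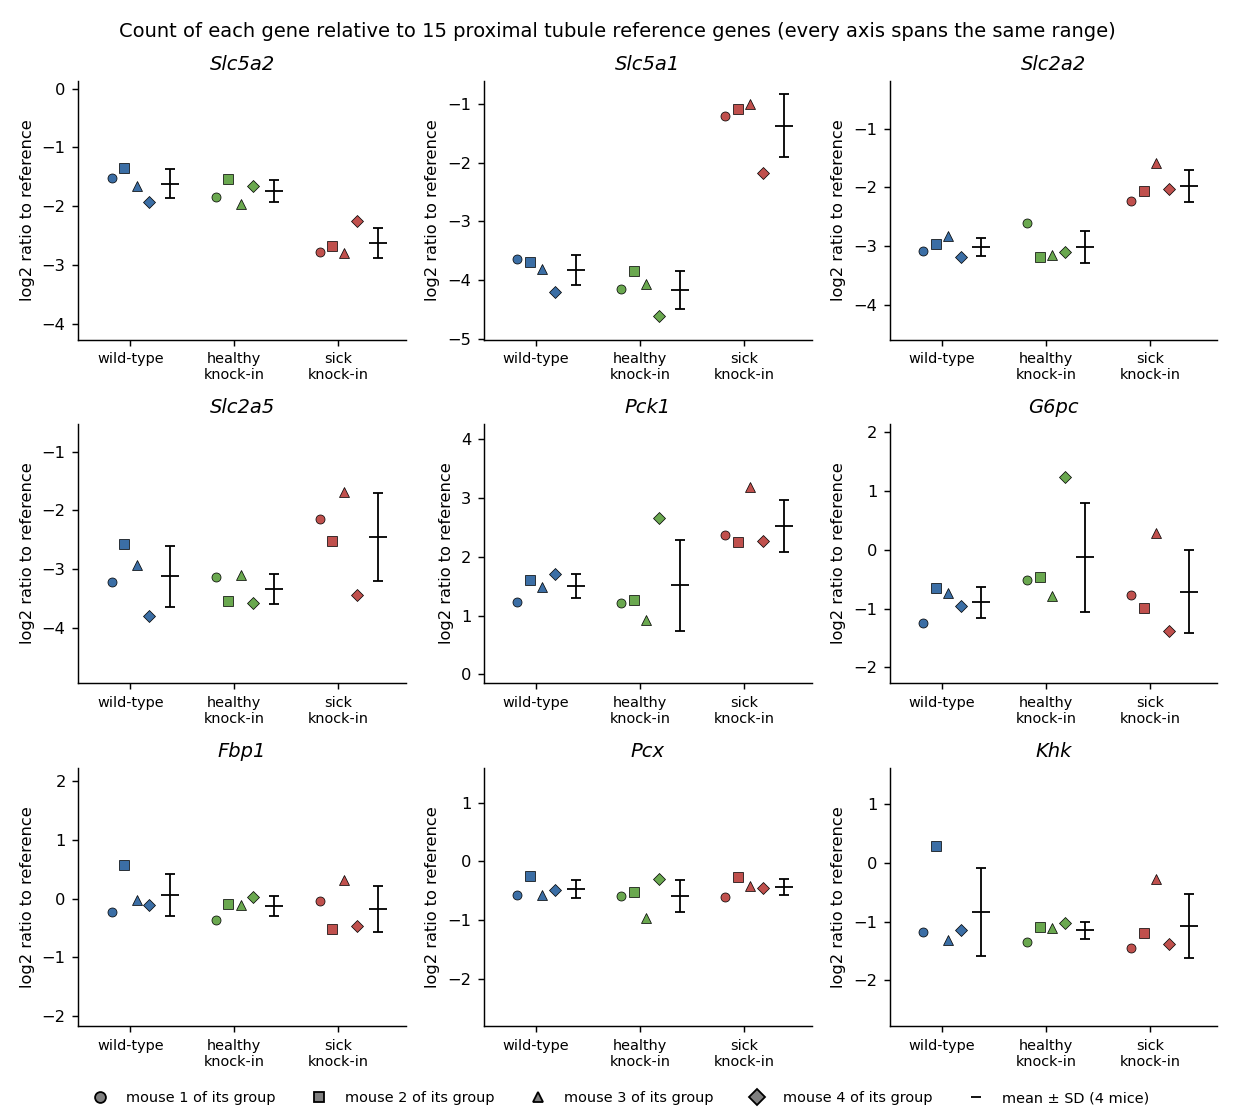
Log2 ratio of each gene's count to the geometric mean of 15 proximal tubule reference genes in each kidney, with mean and SD of 4 mice per group; every axis spans the same range. The sick mice lie below the others for Slc5a2 (-2.80 to -2.25), above them for Slc5a1 (-2.17 to -1.01) and overlap with them for Fbp1, Pcx and Khk, where for Fbp1 and Khk the lowest 2 mice are sick ones.

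The other genes of these pathways were read from lists chosen, like the 9, with earlier results of these data known. Beside each count, 25% of all genes fell and 25.9% rose in sick against wild-type mice (median 0.019). Of 17 tested genes for other steps of gluconeogenesis 14 fell and 2 rose in sick against wild-type mice (median -1.26). Those that fell furthest were Slc37a4, the glucose-6-phosphate carrier that feeds G6pc (415 to 111 CPM, -1.91 ± 0.36), the malate dehydrogenase Mdh1 (-1.91 ± 0.27) and the mitochondrial pyruvate carrier subunit Mpc1 (-1.84 ± 0.16). The mitochondrial counterpart of Pck1, Pck2, rose from 15.8 to 30.6 CPM (0.95 ± 0.19), and the muscle-type bisphosphatase Fbp2 rose 2.17-fold to 47.8 CPM (edgeR adjusted p = 0.00390).

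Of 9 tested genes of fructose and polyol metabolism 7 fell and none rose (median -1.70). Aldh1b1, an aldehyde dehydrogenase, passed as higher (1.09, adjusted p = 0.0234) without wild-type mouse 2 and healthy mouse 4, and with library totals alone (adjusted p = 0.0190). Those that fell included sorbitol dehydrogenase Sord (1367 to 260.0 CPM, -2.40 ± 0.22), the xylulose reductase Dcxr (-1.99 ± 0.27), glycerate kinase Glyctk (-1.97 ± 0.23) and xylulokinase Xylb (-1.77 ± 0.19). Of 18 tested genes that bring in gluconeogenic precursors 12 fell and none rose (median -1.49), led by the tyrosine-degrading enzyme Hpd (-2.84 ± 0.78; 16.6 to 132 CPM in wild-type and 2.96 to 16.8 CPM in sick mice, which overlap), the monocarboxylate carriers Slc5a8 (-2.28 ± 0.27) and Slc16a7 (-2.26 ± 0.23), and glycerol kinase Gyk (840.5 to 195 CPM, -2.11 ± 0.25).

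Other sugar transporters went both ways: of 14 tested, 5 fell and 4 rose (median -0.23), shares near the 25% and 25.9% of all genes. Slc2a12 fell (-1.64 ± 0.24), while Slc2a6 (0.401 to 3.81 CPM, 3.21 ± 0.37), Slc2a10 (1.89 ± 0.37), Slc2a3 (1.89 ± 0.49) and the widespread glucose carrier gene Slc2a1 (37.2 to 72.0 CPM, 0.95 ± 0.22) rose. Pdzk1ip1, whose product binds and activates SGLT2, fell less than Slc5a2, from 461 to 220.0 CPM (-1.07 ± 0.22), a call lost with library totals alone (adjusted p = 0.0515). The other genes that fell, named after their values were seen, were Slc2a4, Slc5a9 and Slc5a11. All 3 lost their call with library totals alone, and Slc2a4 also without sick mouse 3 (adjusted p = 0.0736) and without wild-type mouse 2 and healthy mouse 4 (0.0664). Among 24 glycolytic genes 5 rose and 8 fell (median 0.056), also near those shares. Those that rose were hexokinase 2, Hk2 (0.977 to 15.4 CPM, 3.96 ± 0.40), the pyruvate dehydrogenase kinase Pdk4 (21.9 to 112 CPM, 2.35 ± 0.52), the enolase Eno2 (2.19 ± 0.34), Pfkfb1 (1.13 ± 0.37) and Pfkp (0.61 ± 0.24). The kinase Pdk3 fell (90.0 to 18.0 CPM, -2.33 ± 0.13).

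Of 25 regulators of these genes 10 fell and 1 rose (median -0.65), where 25% of all genes fell and 25.9% rose (median 0.019). Pth1r, the parathyroid hormone receptor of the tubule (-2.17 ± 0.24), the transcription factor Hnf4a (1125 to 406 CPM, -1.47 ± 0.23), the orphan receptor Esrra (-1.43 ± 0.23) and the coactivator Ppargc1b (-1.34 ± 0.28) fell furthest, and Cebpb rose (14.9 to 39.1 CPM, 1.38 ± 0.40). In none of these 6 lists did a gene pass in healthy knock-in against wild-type mice, where 0.314% of all genes did, so that a count of 0 is near that share. With library totals alone the medians moved up: sugar transporters to 0.35, with 6 higher and 1 lower, and glycolysis to 0.64, with 13 higher and 5 lower, while gluconeogenesis (-0.68), fructose and polyol metabolism (-1.13) and precursors (-0.90) stayed negative and regulators stood at -0.062, with 6 higher and 8 lower. Pfkp lost its call with DESeq2 size factors (adjusted p = 0.0610) and without sick mouse 3 (0.109), and Pfkfb1 without wild-type mouse 2 and healthy mouse 4 (0.0726).

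**Figure D5:**
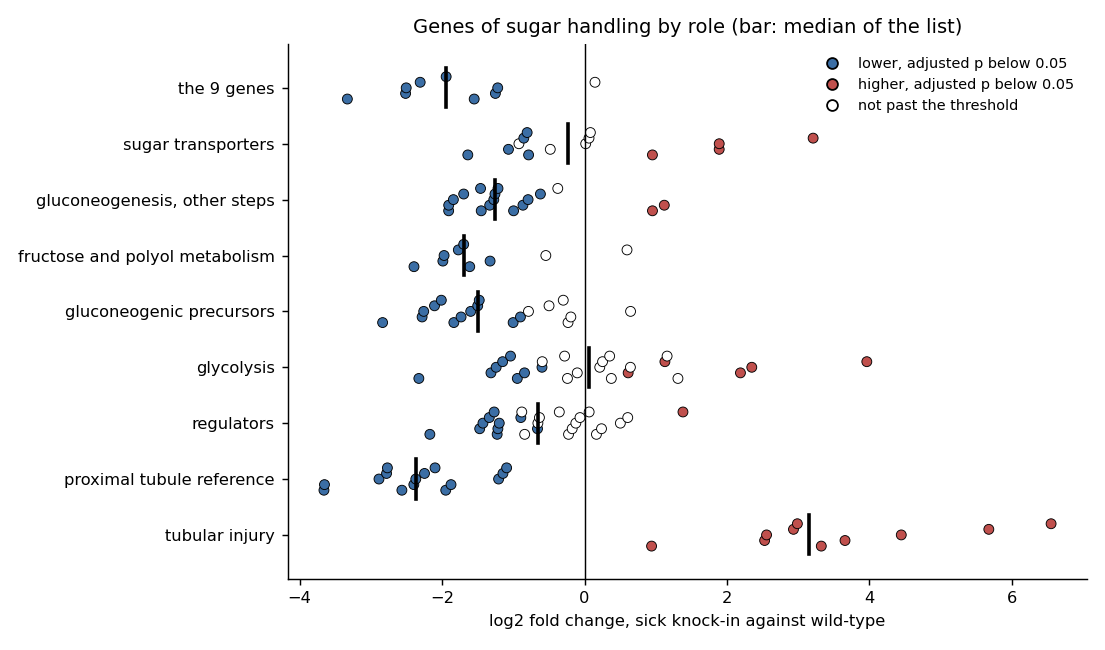
Log2 fold change of each tested gene in sick against wild-type mice, by list, filled where the edgeR adjusted p was below 0.05 (blue lower, red higher), with a bar at the list's median. The medians of gluconeogenesis, fructose and precursor genes lie at -1.70 to -1.26, between the proximal tubule reference at -2.37 and the sugar transporters at -0.23.

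As a description, the tested genes whose log2 CPM over the 12 libraries was most like each of the 9, by Pearson r, were Afmid and Mmachc for Slc5a2 (r = 0.996 and 0.995), Dhrs4 and Ppa2 for Khk (both 0.997), Fbxo7 and Rab7 for Pcx (0.995 and 0.994), Bphl and Pet112 for Fbp1 (both 0.991), Adss and Ppp5c for G6pc (0.987 and 0.956), Xrcc5 and Hoxa9 for Slc2a5 (0.976 and 0.972), Atp6v1c1 and Ptcd3 for Slc2a2 (0.966 and 0.961), Susd3 and Osbpl9 for Pck1 (0.949 and 0.946) and Hoxd8 and Hsd11b2 for Slc5a1 (0.870 and 0.863). The points share libraries and fall into sick and other mice, so high values of r reflect the gap between those groups as well as the spread within them.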

How the data were processed

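Kidney RNA was isolated with a miRvana kit and DNase and sequenced as Trueseq libraries, per the labels' protocols. The submitters' processing notes name build GRCm38, DESeq2 1.12.4, TopHat2 2.0.11, Trim Galore 0.3.7 and Cufflinks; the sources used here name no counting program or strand setting. The table deposited by the authors gives raw counts per Ensembl gene for 12 libraries, per the file headers, with their log2 fold changes and adjusted p-values, whose statistic equals the excess over 0.5 divided by its SE within 0.01 in 100% of the genes above it.

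Counts were analysed with edgeR 4.0.16 (R 4.3.3): filterByExpr by group, TMM scaling, quasi-likelihood fits of 1 mean for each group to all 12 libraries, F tests for the 3 comparisons and Benjamini-Hochberg adjustment over 15589 genes. The SE is the size of the log2 fold change over the square root of F. A fit scaled to 15 proximal tubule genes, and exact two-sided permutation tests of count ratios, were added. Coordinates and exon lengths are from GENCODE on GRCm38, and promoters from RefSeq. Alternatives were other scalings, filters, DESeq2 1.42.0, limma-voom (limma 3.58.1), the 8 libraries compared alone, the replicate number as a block and leaving out libraries. The fits were tested on simulated data.

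The 9 genes and all lists were chosen with earlier results of these data known. Named were the 9, up to 4 called genes per list with the largest change in sick against wild-type mice, called genes that went against most of their list, and the 2 genes most like each of the 9. Pdzk1ip1, Slc2a4, Slc5a9, Slc5a11, Aldh1b1, overlapping genes and markers were named after their values were seen, and some genes that the rule names are not reported here. Of 192 names in the lists 189 were found, 2 of them under an older symbol. Liver, intestine and adrenal gland markers were also read: 2 of 5 tested liver genes and the 1 tested intestine gene, Vil1, which proximal tubule also expresses, fell in sick against wild-type mice, and the 1 tested adrenal gene, Star, did not pass (0.17). Early and late proximal tubule markers fell, 6 of 6 each.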

Additional observations from a re-analysis of the deposited data

Results flagged for a closer look

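A mouse was singled out where its gap to the nearest other mouse of its group took up most of the group's range (Dixon's criterion for 4 values). Of 36 groups of values looked at, the 9 genes and 3 count ratios in 3 groups each, 8 met this. Over all genes tested, healthy knock-in mouse 4 met it as the highest in 2.21%, sick mouse 3 in 2.24%, wild-type mouse 2 in 8.54% and wild-type mouse 4 in 1.48%. The ratios reuse counts of the 9 genes, so the 36 are not independent, and chance was not tested. Healthy knock-in mouse 4 accounts for 5 of the 8: Pck1 at 8313 CPM (the others 2205 to 3145), G6pc at 3118 CPM (673 to 943), Fbp1 at 1344 CPM (1045 to 1075), Khk at 648 CPM (526 to 537) and a G6pc to Pck1 count ratio of 0.375 (0.299907 to 0.305). In sick mouse 3 G6pc was at 376 CPM (89.4 to 108). In wild-type mouse 4 Pcx was at 931 CPM (846 to 850.2), a small step above a narrow group. In wild-type mouse 2 Khk was at 1233 CPM (512 to 592).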

How the results depend on the processing

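Over all alternatives 7 or 8 of the 9 genes passed in sick against wild-type and in sick against healthy knock-in mice, also when each replicate was left out in turn (7 to 8), and none passed in healthy knock-in against wild-type mice. Those that passed were lower, except Slc5a1, which passed as higher with library totals alone. With that scaling 7 were lower against wild-type and 6 against healthy knock-in mice. Of all 15589 genes 8420 were then higher and 1605 lower against wild-type, and 8581 higher and 1425 lower against healthy knock-in mice. By TMM 25% and 21.9% of all genes fell in these 2 comparisons. Leaving out wild-type mouse 2 and healthy knock-in mouse 4 together, a choice made after seeing the data, gave 8, 0 and 7, and the ratio leave-outs were also added then. The labels do not say that the replicate number pairs the mice, and same-numbered deviations correlated at -0.26 to 0.24. Whether same-numbered mice shared a litter or batch is not known. With the replicate number as a block the counts were 8, 0 and 8, and 5, 0 and 5 against the proximal tubule reference, with no call changed. Against that reference 5 of 9 passed in sick against wild-type mice, 4 higher and 1 (Slc5a2) lower, where 94.3% of all genes were higher and 1.09% lower. The count was 3 with the early proximal tubule markers, for which the share of all genes is not given here. With each replicate left out it was 4 to 5.

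Signs that turned belong to values that never passed in that comparison by TMM. With 1 mouse left out at a time, Slc5a1 in sick against wild-type mice ranged from -0.19 (without sick mouse 3) to 0.31. In healthy knock-in against wild-type mice Slc2a2 ranged from -0.15 (without healthy mouse 1) to 0.18, Pck1 from -0.37 (without healthy mouse 4) to 0.45, Pcx from -0.20 to 0.076 (without healthy mouse 3) and Khk from -0.50 to 0.017 (without wild-type mouse 2). Without wild-type mouse 2 and healthy mouse 4 together Pck1 was -0.41 and Pcx -0.21. The log2 ratio of Slc2a5 to Slc2a2 in sick against healthy knock-in mice ranged from -0.33 to 0.17 (without sick mouse 4). In healthy knock-in against wild-type mice the DESeq2 Wald test called 73 of all genes higher and 8 lower, where edgeR called 48 and 1. Of the 25 regulators 15 fell and 2 rose in sick against wild-type mice, not 10 and 1, without wild-type mouse 2 and healthy mouse 4. Of all 15853 genes tested there 4103 fell and 4282 rose. For all these the cause was not tested.

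Whole-kidney counts of 4 mice per group limit these results. The sources used here do not give strand, litter or the definition of sick. The group means of Pck1 and G6pc in healthy knock-in and sick mice lean on single high mice, healthy mouse 4 and sick mouse 3.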

Other observations

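The kidneys that stood apart for single genes above also did so for others of the 106 tested pathway genes, by the same measure of a gap within a group of 4. Wild-type mouse 2 stood apart as the highest in 15 of them (14.2%), and in 8.54% of all genes tested, so it stood apart well beyond these pathways. Healthy knock-in mouse 4 was the highest in 9 (8.49%, and 2.21% of all genes) and the lowest in 1; whether these shares differ was not tested. Its Slc37a4, whose product hands glucose-6-phosphate to G6pc, was at 596 CPM against 307 to 348 CPM in the other healthy knock-in mice, Pdk4 at 63.6 CPM against 11.5 to 18.3, the transcription factor Foxo3 at 256 CPM against 97.3 to 118, the carbohydrate-sensing factor Mlxipl at 196 CPM against 66.7 to 86.7 and Hnf4a at 1493 CPM against 1019 to 1062. Glud1, the glutamate dehydrogenase of glutamine use, was at 984 CPM there against 559 to 627, and Tpi1, Hk2 and Sirt1 were also highest in that mouse. Sick mouse 3 was highest in 6 of the 106 (5.66%, and 2.24% of all genes). In wild-type mouse 4 Irs2, an adaptor of the insulin receptor, was at 101 CPM against at most 13.7 in the other wild-type mice. The sources used here do not give the feeding state or time of sampling.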
